A study of Mus musculus with 8 samples.

Results

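Conventional dendritic cells of type 1 (cDC1) are the dendritic cells that specialise in cross-presentation, and 8 genes known for their identity or work were followed here in mouse spleen: Xcr1, Clec9a, Batf3, Irf8, Wdfy4, Cadm1, Naaa and Itgae. The genes were selected by name, with no measured value in the rule, and each was found by its mouse gene symbol in the annotation of the GRCm38 genome. They are 8 of the 51826 gene identifiers that were counted and 8 of the 16484 genes that passed the filter on low counts, so that all 8 were tested. The smallest count of any member in any mouse was 79, for Batf3.

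The libraries came from the total splenocytes of 8 BALB/c mice, female by the study's methods and 3 months old, whose RNA was sequenced. A group of 4 mice received all-trans retinoic acid (tRA), the active metabolite of vitamin A, by mouth at 1 mg/kg body weight every day from weaning, and the other 4 received the vehicle, canola oil. None of the mice was given pristane, the oil used to induce lupus-like disease in this strain, and no cell type was sorted before sequencing. The treatment text in the labels names tRA for all 8 samples. The sample titles separate control from treated mice, and the groups follow the titles. Counts on genes totaled between 30919272 and 37539631 per vehicle mouse and between 31810417 and 35165876 per tRA mouse. Levels are in CPM, a gene's count relative to the normalized size of its library, and each log2 fold change sets tRA against vehicle, so that a negative value is a lower level with tRA.

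As background, cDC1 take up dead cells and particles and carry their antigens into the MHC class I pathway, a route called cross-presentation, by which naive CD8 T cells are primed against antigens that the dendritic cell does not make itself. In the spleen they lie in the marginal zone and the T cell area and are a rare population among B and T lymphocytes. They take dead self material too, and in the steady state can make CD8 T cells tolerant of it.

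Did daily tRA alter the expression of these genes in the spleen? No member passed an FDR of 0.1 when the groups of 4 mice were compared. The FDR of the members ranged from 0.757 for Naaa to 0.952 for Batf3 in edgeR's quasi-likelihood test, adjusted by Benjamini-Hochberg over all genes tested, and 0 of the 8 passed in DESeq2 and in limma-voom as well. Over all 16484 genes the share that passed in edgeR was 0%, while DESeq2 passed 27 of the 13625 genes to which it gave an adjusted p, and limma-voom passed 1 of 16484. At an unadjusted p under 0.05 there was 1 member, Naaa, where the share over all genes tested was 6.49%. Without vehicle mouse 3 there were 2 members, Naaa and Wdfy4, beside 906 of 16661 genes. Over all genes there were 2105 of 16683 without tRA mouse 1 and 657 of 16732 without tRA mouse 4, with 1 member in each. The log2 fold change was negative for 7 members and positive for Itgae alone, with a median of -0.12, while over all genes tested 8194 were negative, 8290 were positive and the median was 0.0014. All 4 tRA mice lay below all 4 vehicle mice for 1 member, again Naaa, beside 1.63% of all genes tested, and above them for 0 members, beside 1.91%. In RNA from total splenocytes, fewer cells of a type and less RNA per cell cannot be told apart.

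**Figure D1:**
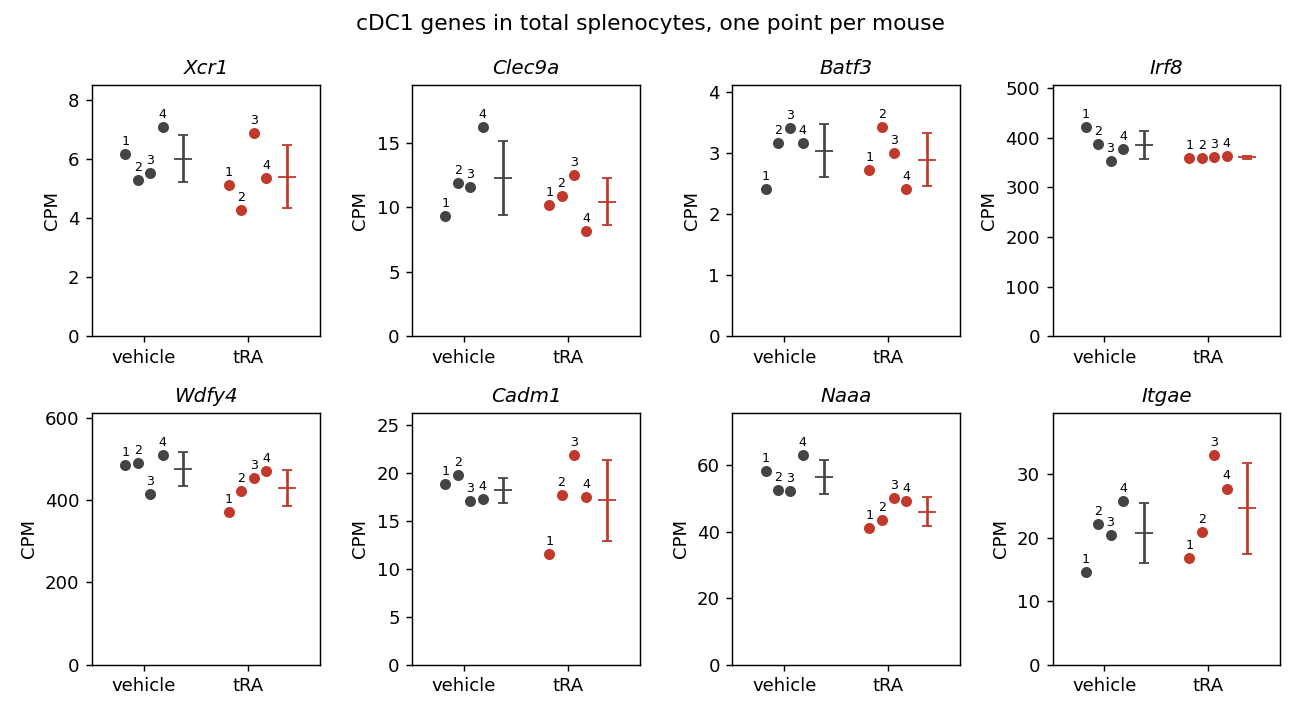
Expression of the 8 genes in CPM on a linear axis that starts at 0, with 1 numbered point per mouse and the mean with its SD beside each group of 4. The groups overlap for 7 genes and are apart for Naaa, where the tRA mice lie between 41.2 and 50.2 CPM and the vehicle mice between 52.1 and 63.1.

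The surface receptors Xcr1 and Clec9a are the members most closely tied to cDC1. Xcr1 (ENSMUSG00000060509, GRCm38 chr9:123852315-123862029, minus strand) encodes the receptor for the chemokine XCL1, which activated CD8 T cells and NK cells release. Its level was 6.14, 5.29, 5.52 and 7.08 CPM in vehicle mice 1 to 4, and 5.10, 4.28, 6.86 and 5.35 CPM in tRA mice 1 to 4. The lowest mouse was tRA mouse 2 and the highest was vehicle mouse 4, with tRA mouse 3 close behind it, and the groups overlapped. Xcr1 averaged 6.01 ± 0.799 CPM (SD, n = 4) with vehicle and 5.40 ± 1.08 CPM (SD, n = 4) with tRA. Its log2 fold change was -0.15 (standard error 0.166, 95% confidence interval -0.52 to 0.21), and the two-sided exact permutation test over mice gave p = 0.371. The log2 fold change of Xcr1 was -0.060 without tRA mouse 2, -0.065 without vehicle mouse 4 and -0.29 without tRA mouse 3. With raw counts of 136 to 253, counting error by itself would give a coefficient of variation of 7.04% among vehicle mice, and the observed one was 13.3%.

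Clec9a (ENSMUSG00000046080, chr6:129408862-129424763, plus strand) encodes DNGR-1, a C-type lectin that binds the actin filaments laid bare in dying cells and steers their antigens to cross-presentation. The gene stood at 9.34, 11.9, 11.6 and 16.2 CPM in vehicle mice 1 to 4 and 10.2, 10.9, 12.5 and 8.13 CPM in tRA mice 1 to 4. Vehicle mouse 4 was the highest of all and tRA mouse 4 the lowest, and the remaining mice were interleaved. The means of 12.3 ± 2.88 CPM with vehicle and 10.4 ± 1.82 CPM with tRA (SD, n = 4 each) gave a log2 fold change of -0.23 (standard error 0.178, 95% confidence interval -0.62 to 0.16). The log2 fold change of Clec9a was -0.066 without vehicle mouse 4 and -0.13 without tRA mouse 4. The exact permutation test of Clec9a gave p = 0.371, as for Xcr1. In the annotation, 184 of the 3293 exon bases of Clec9a also belong to its neighbor Clec1b on the same strand, whose median count was 33 against 363 for Clec9a.

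The transcription factors BATF3 and IRF8 act as partners in cDC1. Batf3 (ENSMUSG00000026630, chr1:191097847-191108945, plus strand) encodes an AP-1 family protein that lacks a transactivation domain of its own and is required for cDC1 to develop. Batf3 was the least abundant member per library, at 2.41, 3.17, 3.41 and 3.17 CPM in vehicle mice 1 to 4 and 2.72, 3.43, 3.01 and 2.41 CPM in tRA mice 1 to 4. The highest value and the second lowest were both in tRA mice, so that the range of the vehicle mice lay almost wholly within that of the other group. Batf3 averaged 3.04 ± 0.436 CPM with vehicle and 2.89 ± 0.434 CPM with tRA (SD, n = 4 each), a log2 fold change of -0.070 (standard error 0.176, 95% confidence interval -0.46 to 0.32), and the exact permutation p was 0.686. The direction was not stable, as the log2 fold change ranged from -0.17 without vehicle mouse 1 to 0.0074 without tRA mouse 4. Its raw counts were 79 to 118, for which counting error alone would give a coefficient of variation of 9.91% among vehicle mice, against 14.3% observed.

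Irf8 (ENSMUSG00000041515, chr8:120736358-120756694, plus strand) encodes the interferon regulatory factor that directs precursors to the cDC1 fate, and it is also used by B cells, plasmacytoid dendritic cells and monocytes. Its values were 422, 388, 353 and 378 CPM in vehicle mice 1 to 4 and 358, 359, 361 and 364 CPM in tRA mice 1 to 4. The tRA mice lay within a few CPM of each other, and vehicle mouse 3 was the lowest of all 8, so that the ranges overlapped. Irf8 averaged 385 ± 28.5 CPM with vehicle and 361 ± 2.64 CPM with tRA (SD, n = 4 each). Its log2 fold change of -0.095 had the smallest standard error among the members, 0.0694, with a 95% confidence interval of -0.25 to 0.058, and the exact permutation p was 0.143. The log2 fold change of Irf8 was -0.048 without vehicle mouse 1, its highest mouse. The coefficient of variation of Irf8 was 7.39% among vehicle mice and 0.733% among tRA mice, the latter below the 0.909% that counting error would give. The difference in spread between the groups was not tested.

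Wdfy4 (ENSMUSG00000051506, chr14:32959547-33185508, minus strand) encodes a large BEACH domain protein of vesicle traffic that cDC1 need in order to cross-present antigens of dead cells, and B cells express it as well. It was measured at 485, 491, 416 and 509.5 CPM in vehicle mice 1 to 4 and at 371, 422, 455 and 471 CPM in tRA mice 1 to 4. The lowest mouse was tRA mouse 1, and the next was vehicle mouse 3, which lay below 3 of the 4 tRA mice. Wdfy4 averaged 475 ± 40.9 CPM with vehicle and 429.7 ± 44.0 CPM with tRA (SD, n = 4 each), for a log2 fold change of -0.15 (standard error 0.0936, 95% confidence interval -0.35 to 0.061) and an exact permutation p of 0.2. It was -0.081 without tRA mouse 1, the lowest in Wdfy4.

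Naaa (ENSMUSG00000029413, chr5:92257659-92278170, minus strand) encodes N-acylethanolamine acid amidase, a lysosomal enzyme that breaks down palmitoylethanolamide, a lipid with anti-inflammatory action. Its transcript is enriched in cDC1 among dendritic cells. Vehicle mice 1 to 4 had 58.2, 52.5, 52.1 and 63.1 CPM of Naaa, and tRA mice 1 to 4 had 41.2, 43.5, 50.2 and 49.2 CPM. Every tRA mouse was below every vehicle mouse, although tRA mouse 3 and vehicle mouse 3 were close to each other. The mean was 56.5 ± 5.21 CPM with vehicle and 46.0 ± 4.36 CPM with tRA (SD, n = 4 each), a log2 fold change of -0.29 (standard error 0.0902, 95% confidence interval -0.49 to -0.095), or -18.5%. Naaa ranked 150 of 16484 genes by p-value, with an unadjusted p of 0.00773 and an FDR of 0.757 in edgeR's quasi-likelihood test, adjusted by Benjamini-Hochberg. The exact permutation p of Naaa was 0.0286, the smallest that 70 splits of 8 mice can give. For 6 of 9 genes of neutrophil precursor granules, and for their sum, all 4 tRA mice were likewise below all 4 vehicle mice. The same order was found for 1.63% of all genes tested. The summed level of the 9 genes was 553, 699, 738 and 633 CPM in vehicle mice 1 to 4 and 252, 315, 345 and 492 CPM in tRA mice 1 to 4, with Ngp the most abundant, and their part in the values of Naaa was not tested.

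Cadm1 (ENSMUSG00000032076, chr9:47530173-47857637, plus strand) encodes the adhesion molecule also called Necl2, which marks cDC1 across species and binds CRTAM on activated CD8 T cells. It stood at 18.9, 19.8, 17.0 and 17.3 CPM in vehicle mice 1 to 4 and at 11.6, 17.7, 21.9 and 17.5 CPM in tRA mice 1 to 4. Both the lowest and the highest of the 8 mice had received tRA, and the vehicle mice lay between them. Cadm1 averaged 18.2 ± 1.30 CPM with vehicle and 17.2 ± 4.24 CPM with tRA (SD, n = 4 each), a log2 fold change of -0.086 (standard error 0.161, 95% confidence interval -0.44 to 0.27) with an exact permutation p of 0.743. The log2 fold change of Cadm1 was 0.062 without tRA mouse 1. That mouse was also the lowest in Siglech, the defining marker of plasmacytoid dendritic cells, at 9.90 CPM, where the other mice had 19.9 to 31.2 CPM. The summed level of the 9 plasmacytoid markers was 281, 317, 262 and 327 CPM in vehicle mice 1 to 4 and 233, 308, 284 and 298 CPM in tRA mice 1 to 4, led by Tcf4. The sum of 5 markers of red pulp macrophages was also lowest in tRA mouse 1. It was 476, 572, 429 and 359 CPM in vehicle mice 1 to 4 and 335, 452, 532 and 428 CPM in tRA mice 1 to 4. The part of either cell type in the values of Cadm1 was not tested.

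Itgae (ENSMUSG00000005947, chr11:73090583-73147446, plus strand) encodes CD103, the integrin alpha chain that pairs with the beta 7 chain and binds E-cadherin, and many CD8 and regulatory T cells carry it too. Its values were 14.6, 22.1, 20.3 and 25.8 CPM in vehicle mice 1 to 4 and 16.8, 20.8, 33.0 and 27.7 CPM in tRA mice 1 to 4. The highest mice were tRA mice 3 and 4, while tRA mice 1 and 2 lay within the vehicle range. The only member with a positive log2 fold change, at 0.25 (standard error 0.215, 95% confidence interval -0.22 to 0.72), Itgae averaged 20.7 ± 4.68 CPM with vehicle and 24.6 ± 7.19 CPM with tRA (SD, n = 4 each), and its exact permutation p was 0.429. The log2 fold change of Itgae was 0.072 without tRA mouse 3, and -0.14 with tRA mice 3 and 4 both left out, a choice made after seeing the data. Foxp3, the defining gene of regulatory T cells, was the most abundant of their 4 markers by the mean of all 8 mice. In the vehicle mice Ctla4 was higher, with a mean of 47.3 against 45.8 CPM. Foxp3 was highest in the same 3 mice as Itgae, at 36.2, 47.4, 43.3 and 56.4 CPM in vehicle mice 1 to 4 and 38.3, 39.0, 63.4 and 53.8 CPM in tRA mice 1 to 4. All 4 markers of regulatory T cells together summed to 121, 133, 124 and 158 CPM in vehicle mice 1 to 4 and 133, 121, 129 and 113 CPM in tRA mice 1 to 4. Within that sum, Ctla4 ran against Foxp3 among the tRA mice, at 64.4, 45.0, 21.2 and 18.3 CPM in tRA mice 1 to 4, with its lowest values in tRA mice 3 and 4. In vehicle mice 1 to 4 Ctla4 was at 47.5, 45.2, 42.7 and 53.9 CPM, and there both genes were highest in vehicle mouse 4. Il2ra was highest in the same 3 mice as Itgae. Ikzf2 was not, at 14.7, 17.2, 15.3 and 21.1 CPM in vehicle mice 1 to 4 and 11.5, 14.4, 14.3 and 16.6 CPM in tRA mice 1 to 4. In Ikzf2, tRA mouse 3 lay below every vehicle mouse. The part of such cells in the values of Itgae was not tested.

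Per kilobase of exon, the members spanned a wide range in the vehicle mice. Irf8 stood highest at 54.6 ± 4.04 RPKM (the CPM divided by the exon length in kilobases, SD, n = 4), and Wdfy4 followed at 45.0 ± 3.87 RPKM. These levels were apart by more than their SDs, and Naaa came next at 15.2 ± 1.40 RPKM. Itgae at 4.52 ± 1.02 RPKM and Clec9a at 3.72 ± 0.874 RPKM did not differ beyond their spread. Nor did Batf3 at 1.90 ± 0.273 RPKM and Cadm1 at 1.75 ± 0.125 RPKM, while Xcr1 was below both at 1.35 ± 0.179 RPKM. With tRA the order was identical, from 51.1 RPKM for Irf8 to 1.21 RPKM for Xcr1. By the mean RPKM of all 8 mice, Irf8 lay above 94.8% of the genes tested, Wdfy4 above 93.2%, Batf3 above 35.6% and Xcr1 above 30.0%.

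Across the 8 mice the correlations among the members were of both signs. Of the 28 pairs of members, 22 had a positive Pearson correlation of log2 CPM and 6 a negative one, with a median r of 0.338, or 0.304 after the group means were removed. By Pearson's r, Naaa and Wdfy4 were the closest pair, with r = 0.839 over 8 mice (exact permutation p = 0.0079, 0.222 with Benjamini-Hochberg adjustment over the 28 pairs) and Spearman's rho = 0.81 (exact permutation p = 0.0218, adjusted 0.305). Their r was 0.913 without the 2 mice farthest from the median of Wdfy4 and 0.818 with group means removed. By Spearman's rho the closest pair was Irf8 and Wdfy4, with rho = 0.881 (exact permutation p = 0.0072, adjusted 0.203) and r = 0.621 (exact permutation p = 0.0964, adjusted 0.540). This r was 0.790 without the 2 mice farthest from the median of Irf8 and 0.463 with group means removed. Xcr1 and Naaa had r = 0.753 (exact permutation p = 0.031, adjusted 0.402) and rho = 0.738 (exact permutation p = 0.0458, adjusted 0.428). Their r was 0.467 without the 2 mice farthest from the median of Xcr1, which narrows the range of Xcr1, and 0.802 with group means removed. The receptors Xcr1 and Clec9a had r = 0.507 (exact permutation p = 0.194) and rho = 0.476 (exact permutation p = 0.243), with adjusted values of 0.572 and 0.681. Their r was 0.338 without the 2 mice farthest from the median of Xcr1 and 0.422 with group means removed. The partners Batf3 and Irf8 had r = -0.465 (exact permutation p = 0.243) and rho = -0.452 (exact permutation p = 0.268), also 0.572 and 0.681 after adjustment. Their r was -0.019 without the 2 mice farthest from the median of Batf3 and -0.713 with group means removed. After adjustment over the 28 pairs, 0 had p under 0.1.

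Among all genes tested, those most like Xcr1 over the 8 mice by Pearson's r of log2 CPM were Gm25193 (0.961), Adamtsl2 (0.934), Camk2a (0.931), Igkv10-95 (0.917) and Tlr12 (0.916). Of these, Tlr12 encodes an endosomal Toll-like receptor that recognises profilin of Toxoplasma and averaged 5.19 CPM, whereas Gm25193 averaged 0.366 CPM and Adamtsl2 0.521 CPM, near the filter on low counts. The genes most like Clec9a were Gm43352 (0.946), Laptm4b (0.937), Gm19187 (0.929), Cars2 (0.928) and Ccdc163 (0.922). These are the top 5 of 16483 genes for each receptor, and 8 genes for Xcr1 and 12 for Clec9a had an r over 0.9.

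Further factors regulate the development of cDC1 or of the lineages beside them, and none of 12 such genes had an FDR under 0.1 in edgeR. There were 4 with a positive and 8 with a negative log2 fold change, with a median of -0.060. At an unadjusted p under 0.05 there was 1 gene, beside 6.49% of all genes tested. That gene was Spi1, which encodes the myeloid pioneer factor PU.1. It was expressed at 102 ± 7.82 CPM with vehicle and 90.1 ± 5.36 CPM with tRA (SD, n = 4 each), a log2 fold change of -0.18 (standard error 0.0736), and the groups overlapped. The cytokine of dendritic cell growth, Flt3l, was at 84.1 ± 5.29 CPM and 95.4 ± 9.59 CPM, with a log2 fold change of 0.18 (standard error 0.0827). Its receptor Flt3, carried by dendritic cell precursors and by mature conventional dendritic cells, went the other way, at 24.1 ± 3.41 CPM and 20.6 ± 2.63 CPM, with a log2 fold change of -0.23 (standard error 0.122). Irf4, the related factor that serves the cDC2 branch and activated B cells, was the most abundant of this list. It was at 276, 265, 193 and 266 CPM in vehicle mice 1 to 4 and 367, 302, 159 and 178 CPM in tRA mice 1 to 4, so that tRA mice held both the highest and the lowest values.

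Ligands and partners of the members comprised 10 genes, 5 with a positive and 5 with a negative log2 fold change and a median of -0.052. None had an FDR under 0.1 in edgeR, and 3 had an unadjusted p under 0.05, beside 6.49% of all genes tested. Xcl1, the chemokine that XCR1 binds, was at 6.20, 6.07, 5.81 and 6.59 CPM in vehicle mice 1 to 4 and 6.14, 4.16, 3.44 and 3.45 CPM in tRA mice 1 to 4. The vehicle mice were close to each other, and 3 of the 4 tRA mice were below all of them, for a log2 fold change of -0.52 (standard error 0.188). Jun, an AP-1 partner of BATF3 and the most abundant gene of the list, was lower in each tRA mouse than in any vehicle mouse, at 2565, 2626, 2730.5 and 2122 CPM against 2094, 1869, 1231 and 1537 CPM in mice 1 to 4. Its log2 fold change was -0.58 (standard error 0.154). Jund, a further AP-1 partner, had a log2 fold change of -0.79 (standard error 0.315) with overlapping groups, at 716 ± 242 CPM with vehicle and 413 ± 204 CPM with tRA (SD, n = 4 each).

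Jun also belongs to a list of immediate early genes, the transcripts that cells induce within minutes of stimulation. Of these 10 genes, 10 had a negative log2 fold change, with a median of -0.49. An unadjusted p under 0.05 was found for 3 (Egr1, Jun and Fosb), beside 6.49% of all genes tested, while 0 had an FDR under 0.1 in edgeR. The summed level of these 10 genes was 16323, 15466, 14579.5 and 13276 CPM in vehicle mice 1 to 4 and 15586, 12030, 5546 and 7033 CPM in tRA mice 1 to 4. Fos was the most abundant by the mean of all 8 mice, while Fosb was higher in the vehicle mice (mean of 3319 against 3184 CPM). The low sums were those of tRA mice 3 and 4, which also had the lowest Jun, Jund, Xcl1 and Irf4 of all 8 mice. The sum of tRA mouse 1 was the second highest, although its Jun was below that of every vehicle mouse. The part of the immediate early response in the values of Jun, Jund, Xcl1 and Irf4 was not tested. With tRA mice 3 and 4 left out, a choice made after seeing the data, the median log2 fold change of the 8 members was -0.24, and that of Naaa was -0.42. Batf3 and Itgae changed sign, to 0.017 and -0.14, and 0 members had an FDR under 0.1.

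Of 14 other genes enriched in cDC1, 11 had a negative and 3 a positive log2 fold change, and the median was -0.12. In edgeR 0 had an FDR under 0.1, and 2 had an unadjusted p under 0.05, beside 6.49% of all genes tested. Cd207, which encodes the lectin langerin of a subset of cDC1 and of Langerhans cells, was at 5.25, 3.58, 4.19 and 5.07 CPM in vehicle mice 1 to 4 and 3.05, 3.15, 3.96 and 2.87 CPM in tRA mice 1 to 4. Only tRA mouse 3 reached into the vehicle range, and the log2 fold change was -0.47 (standard error 0.173). Cxcl9, a chemokine by which cDC1 attract T cells that carry CXCR3, was at 6.55 ± 0.719 CPM and 5.11 ± 0.648 CPM (SD, n = 4 each), a log2 fold change of -0.36 (standard error 0.140). Rab7b, a small GTPase of late endosomes, was at 5.72 ± 1.24 CPM and 4.57 ± 0.779 CPM, with a log2 fold change of -0.32 (standard error 0.180). The most abundant gene of the list was Cd24a, a surface glycoprotein shared with immature B cells and red cell precursors, at 345 ± 76.7 CPM with vehicle and 311 ± 55.2 CPM with tRA.

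Cross-presentation also needs machinery that most cells express, which brings antigen from endosomes to the cytosol, trims and transports the peptides and loads them on MHC class I. Of 16 such genes, 12 had a negative and 4 a positive log2 fold change, with a median of -0.066. There were 3 with an unadjusted p under 0.05, beside 6.49% of all genes tested, and 0 with an FDR under 0.1 in edgeR. Cyba, the membrane subunit of the NADPH oxidase that keeps phagosomes of cDC1 from turning acidic, was at 178, 180.1, 189 and 164 CPM in vehicle mice 1 to 4 and 165, 146, 138 and 144 CPM in tRA mice 1 to 4. Only tRA mouse 1 exceeded the lowest vehicle mouse, and by little, and the log2 fold change was -0.26 (standard error 0.0730). Sec61b, a subunit of the translocon that has been proposed as a route of antigen to the cytosol, was at 34.3 ± 4.36 CPM and 25.8 ± 3.72 CPM (SD, n = 4 each), a log2 fold change of -0.41 (standard error 0.118). Erap1, the peptidase that trims peptides in the endoplasmic reticulum, had a log2 fold change of 0.17 (standard error 0.0750), at 84.6 ± 4.17 CPM and 95.3 ± 8.12 CPM. Rac2, the GTPase that assembles the oxidase and the most abundant gene of the list, was at 1136 ± 13.8 CPM and 1089 ± 42.1 CPM, with a log2 fold change of -0.062.

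**Figure D2:**
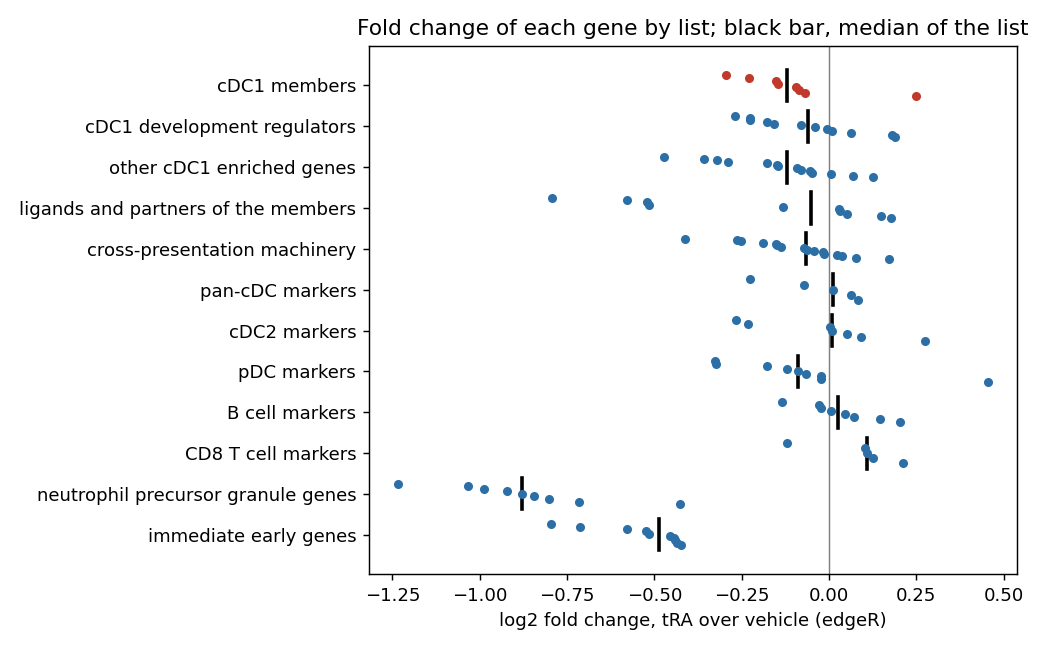
Log2 fold change of tRA over vehicle from edgeR, with 1 point per gene and a black bar at the median of each list, for the 8 members, related cDC1 genes and markers of other cells. The members have a median of -0.12, and the neutrophil precursor granule genes and the immediate early genes lie farthest to the left, with medians of -0.88 and -0.49.

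Other dendritic cells were measured for comparison. Of the 5 markers shared by conventional dendritic cells, 3 had a positive and 2 a negative log2 fold change, from -0.23 for Flt3 to 0.083. Itgax, the gene of CD11c, was at 87.7 ± 17.7 CPM with vehicle and 83.4 ± 10.8 CPM with tRA (SD, n = 4 each), with a log2 fold change of -0.071. The median of the list, 0.011, was the value of Ccr7, the most abundant gene at 258 ± 39.0 CPM and 260.5 ± 122 CPM. Of the 7 markers of cDC2, the conventional subset that mainly primes CD4 T cells, 5 had a positive and 2 a negative log2 fold change, from -0.27 to 0.27. Sirpa was at 150.1 ± 24.8 CPM and 150.4 ± 14.2 CPM. The median of the list, 0.0093, was the value of Irf4, again the most abundant gene. At an unadjusted p under 0.05 there was 1 cDC2 marker, Cd209a, with a log2 fold change of 0.27, beside 6.49% of all genes tested. Of the 9 markers of plasmacytoid cells, 8 had a negative log2 fold change, with a median of -0.090. An unadjusted p under 0.05 was found for 2 of them, Bst2 at -0.32 and Ccr9 at 0.45, beside 6.49% of all genes tested. None of the genes in these lists had an FDR under 0.1 in edgeR. The difference between the cDC1 genes and these lists was not tested.

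Cells that share members with cDC1 gave the following levels. The 8 B cell markers summed to 7378 ± 508 CPM with vehicle and 7485 ± 107 CPM with tRA (SD, n = 4 each), with a median log2 fold change of 0.025, and Cd79a was the most abundant at 1396 ± 110.2 CPM and 1271 ± 86.9 CPM. Of 5 T cell markers, Cd8a and Cd8b1 of CD8 T cells and the pan-T genes Cd3e, Cd3d and Cd3g, 4 had a positive log2 fold change, with a median of 0.11. Cd8a, which splenic cDC1 also express in its alpha-alpha form, was at 131 ± 23.8 CPM and 143 ± 22.4 CPM, and Cd3e was the most abundant at 164 ± 18.4 CPM and 189.9 ± 20.5 CPM. The 5 markers of NK cells, which also make XCL1, had a median of -0.032, with Ncr1 at 49.0 ± 12.4 CPM and 59.0 ± 6.95 CPM and Gzma the most abundant. The medians were 0.091 for 4 monocyte markers, among them Ly6c2 and the abundant Csf1r, -0.018 for 5 markers of red pulp macrophages, among them Adgre1 and the abundant Hmox1, and -0.12 for the 4 markers of regulatory T cells. In the lists of B, T, NK and regulatory T cells, monocytes and macrophages 0 genes had an FDR under 0.1 in edgeR and 0 had an unadjusted p under 0.05. The granule genes of neutrophil precursors stood farthest from 0, with a median of -0.88 and 8 of 9 at an unadjusted p under 0.05, beside 6.49% of all genes tested. In edgeR's quasi-likelihood test, adjusted by Benjamini-Hochberg, 0 of the 9 had an FDR under 0.1, and the lowest FDR was 0.135, for Camp. In the study, Camp, Ngp and Ltf are among the significant genes of its own DESeq2 comparison. Camp was at 71.1 ± 5.25 CPM and 30.2 ± 8.35 CPM, and Ngp was the most abundant at 325 ± 44.0 CPM and 171 ± 50.9 CPM.

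Promoter sequences from RefSeq (GRCm38.p6), the 250 bases before a start that RefSeq annotates, were found for 6 of the 8 members, with 7 promoters in all because Irf8 has more than 1. The windows of Batf3, of Wdfy4 and of the downstream start of Irf8 lie inside the gene spans given above, and the RefSeq start of Naaa is not that of a GENCODE transcript. Cadm1 and Itgae were not matched. The windows were searched on both strands for GAAA, the core that interferon regulatory factors such as IRF8 contact, for TGANTCA, the AP-1 motif that BATF3 and its JUN partners bind, for spaced pairs of interferon regulatory factor and ETS cores, and for the hexamer of retinoid receptors. GAAA was in 5 of the 7 member promoters, and it was in 86.4% of the 32851 promoters searched. TGANTCA was in 0 of the 7 and in 6.75% of all promoters, GAAA repeated after 2 bases in 0 of the 7 and 2.98%, and GGAA followed after 2 bases by GAAA in 0 of the 7 and 2.3%. AGGTCA, that hexamer, was in 0 of the 7 and 14% of all promoters, and its repeats after 5 or after 2 bases were each in 0 of the 7 and 0.00913%. These are matches of letters in a short window, and they say nothing of binding. The promoters of both cDC1 receptors and of Irf8, the member of highest level per length, are printed 5′ to 3′ on the strand of the gene, with GAAA or its reverse complement TTTC in capitals. They lie at chr9:123862030-123862279 (minus strand) for Xcr1, chr6:129408612-129408861 (plus strand) for Clec9a and chr8:120736108-120736357 (plus strand) for the upstream start of Irf8.
Xcr1: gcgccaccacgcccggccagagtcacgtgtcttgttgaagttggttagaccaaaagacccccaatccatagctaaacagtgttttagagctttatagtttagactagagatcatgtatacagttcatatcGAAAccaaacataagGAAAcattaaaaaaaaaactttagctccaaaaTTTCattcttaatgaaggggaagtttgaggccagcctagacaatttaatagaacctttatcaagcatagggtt
Clec9a: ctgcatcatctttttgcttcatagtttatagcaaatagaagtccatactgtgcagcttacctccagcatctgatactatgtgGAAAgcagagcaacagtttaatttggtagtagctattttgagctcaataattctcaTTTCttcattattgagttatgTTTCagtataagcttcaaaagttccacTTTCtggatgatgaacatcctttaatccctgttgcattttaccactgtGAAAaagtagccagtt
Irf8: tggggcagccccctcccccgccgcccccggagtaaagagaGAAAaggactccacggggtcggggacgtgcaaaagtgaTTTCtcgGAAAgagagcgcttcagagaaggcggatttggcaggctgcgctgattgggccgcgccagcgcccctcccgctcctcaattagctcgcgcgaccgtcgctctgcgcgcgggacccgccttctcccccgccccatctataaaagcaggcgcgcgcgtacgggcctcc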

How the data were processed

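Total splenocyte RNA of 8 mice was sequenced on the same lane. The authors deposited counts of reads on genes, 1 column per mouse, without normalization. The study's methods name ea-utils and Btrim, Bowtie2 and Tophat2, and HTSeq, while the submitters' processing notes list STAR 2.5.2b, featureCounts 1.5.1, DESeq2 1.26.0 and GRCm38. Which set made the counts, and whether counting used the strand, is not given in the sources used here. A table of the authors' own comparison (means, fold changes, p-values) was not used.

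Symbols, positions and exon lengths came from GENCODE M21, which held 51633 of the identifiers and lacked 193. The analysis ran in R 4.3.3 with edgeR 4.0.16 (filterByExpr with a minimum of 10 counts, TMM, quasi-likelihood test on all 8 libraries, Benjamini-Hochberg, FDR threshold 0.1). Single genes were also compared by two-sided exact permutation of mean log2 CPM. The fit was tested on simulated data. Mice of the same group were not duplicates, as their counts gave a chi-square over genes of 12.9 to 65.4 per degree of freedom. Python 3.11.15, scipy 1.17.1 and matplotlib 3.10.9 gave correlations and plots.

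The members and lists were chosen with earlier results of these data known. Named from the lists were the 3 genes of lowest p and the most abundant gene of each cDC1 list, the defining and the most abundant gene of each marker list, and the 5 genes most like Xcr1 and Clec9a. The defining gene of 1 marker list is not reported here. Clec1b, Cd209a, Bst2, Ccr9, Egr1, Fosb, Ctla4, Il2ra and Ikzf2 were named after their values were seen. Alternatives were RLE normalization, library size alone, no filter, at least 10 counts in every sample, DESeq2 1.42.0, limma-voom (limma 3.58.1), the replicate number as a block, each mouse left out, and tRA mice 3 and 4 left out.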

Additional observations from a re-analysis of the deposited data

Results flagged for a closer look

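The 8 members gave 16 groups of 4 mice, and in 0 of them did the highest or lowest mouse stand apart from the others by more than Dixon's 95% critical value, which chance passes in about 1 of 20 groups.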

How the results depend on the processing

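Of the 8 members, 0 had an adjusted p under 0.1 in each of the 16 alternatives, and their lowest adjusted p ranged from 0.320 to 1.00. Their median log2 fold change was negative in all 16, from -0.20 to -0.085 with each mouse left out in turn, and -0.24 with tRA mice 3 and 4 both left out, an alternative chosen after seeing the data. The number of genes with an adjusted p under 0.1 among all genes was 0 in edgeR, 6 without a filter on low counts, 27 in DESeq2, 1 in limma-voom, 3 with tRA mice 3 and 4 left out, and 0 to 3 with each mouse left out (3 without tRA mouse 4). Xcr1, Clec9a, Irf8, Wdfy4 and Naaa kept a negative log2 fold change in all 16 alternatives, and with each mouse left out they ranged from -0.29 to -0.060 for Xcr1, -0.34 to -0.066 for Clec9a, -0.14 to -0.048 for Irf8, -0.21 to -0.081 for Wdfy4 and -0.34 to -0.24 for Naaa. That of Cadm1 ranged from -0.23 to 0.062 with each mouse left out, the latter without tRA mouse 1. With tRA mice 3 and 4 left out, the log2 fold change was -0.32 for Cadm1, -0.36 for Xcr1 and -0.22 for Clec9a. For Irf8, Wdfy4 and Naaa it was then -0.10, -0.26 and -0.42. That of Batf3 ranged from -0.17 to 0.0074, the latter without tRA mouse 4, and was 0.017 without tRA mice 3 and 4. Itgae was -0.14 without tRA mice 3 and 4, and 0.072 to 0.39 with each mouse left out. For these changes of sign the cause was not tested. The deviations of mice with the same number were weakly or not correlated over genes (r of 0.16, -0.023, -0.014 and 0.26 for numbers 1 to 4), and with the replicate block 0 genes passed, 0 of them members, and the median of the members was -0.13. Batf3 rests on the lowest counts of the members, 79 to 118.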
